A study of Homo sapiens with 8 samples.

Results

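RND3 knockdown cells were followed through time on 4 arrays. U87 is an established human glioblastoma line, and siRND3 denotes U87 cells transfected with siRNA against RND3, the gene for the atypical small GTPase RhoE. RNA was profiled 24 h after transfection on 3 siRND3 arrays and 48 h after transfection on 1 siRND3 array, chosen by their titles from the 8 arrays of the series. The other 4 arrays hold U87 cells given a non-silencing siRNA (siControl), again 3 at 24 h and 1 at 48 h, and they are used only to ask whether a change with time in siRND3 cells was also seen without knockdown. A pair of siRNAs against RND3 is named in the methods, and neither these nor the labels tell which array received which. The labels also do not say whether replicates were separate transfections, so p-values measure only the spread between these arrays, which may be technical. Since 48 h has 1 array, each difference is set against the spread of the 3 arrays at 24 h, and every test assumes that the single array varies like them.

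RND3 belongs to the Rnd branch of small GTPases, whose members stay bound to GTP and are controlled through their abundance rather than by a switch between GTP and GDP. The protein binds and inhibits the kinase ROCK1 and activates p190RhoGAP, and by both routes it lowers RhoA-driven actomyosin contraction. In glioblastoma cells it has been studied for its part in migration and proliferation. An siRNA lowers its transcript from the first day, and the genes downstream may follow later, which is the question a comparison of both times addresses.

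Levels and differences are given as log2 intensity after quantile normalisation, so that 1 unit is a 2-fold change, and a level is compared only with the same probe on other arrays. Each array had between 68.3% and 70.7% of its 42405 probes well above background, and no spot was saturated. The siRND3 arrays at 24 h correlated with each other across probes at r between 0.9915 and 0.9939, and the 48 h array correlated with them at r between 0.9852 and 0.9876. The label was checked against markers of glioma cells, of which 7 of 11 were measured above background, among them VIM, NES, CD44, SOX9, SLC1A3 and TNC. GFAP and S100B, which mark astrocytes, and SOX2 were not well above background on any siRND3 array, and AQP4 was on 1. Of 19 markers of other cell types 14 were measured, and their median level was 6.04, 6.30 and 6.08 on the arrays at 24 h and 6.07 at 48 h. Among these 14, SNAP25 was called lower and no other marker was called. The markers of other cell types HBB, CDH1, RBFOX3 and ALB were not well above background on any siRND3 array. With most markers of both lists measured, this check does not set glioma cells apart from other cell types.

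RND3 itself stayed low. It was represented by 1 probe, which read 10.13, 10.18 and 10.41 on the siRND3 arrays at 24 h and 9.83 at 48 h, so that the later array lay below all 3 earlier ones. The difference of -0.41 (SE 0.13) did not pass (limma adjusted p 0.111), and it passed under 1 alternative, a trended prior variance (adjusted p 0.0475). In siControl cells RND3 read 11.88, 11.91 and 11.90 at 24 h and 11.48 at 48 h, a difference of -0.41 too. The change with time therefore differed by 0.01 between both treatments (SE 0.19, adjusted p 0.99).

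More probes were called lower than higher between 24 h and 48 h in siRND3 cells. Of 28762 probes tested, 2622 (9.12%) were called at an adjusted p under 0.05 by limma, 753 higher at 48 h (2.62%) and 1869 lower (6.5%). At an unadjusted p under 0.05 there were 7587. The count rested on the spread of the siControl arrays too, since a fit of the siRND3 arrays alone called 416 probes, 46 higher and 370 lower. The median difference was 0.68 among probes called higher and -0.80 among probes called lower. Large falls outnumbered large rises, since 613 called probes were lower by more than 1 and 121 were higher by more than 1. The balance depended on the background correction, as 28.7% of the calls were rises here and 40.5% with normexp correction, which gave 1351 rises. Probes were tested by their signal at 24 h, so falls to background entered more readily than rises from it. Of the lower calls 219 were not well above background at 48 h, while 6 higher calls were dim on all siRND3 arrays at 24 h. Without a filter on dim probes 37.6% of the calls were rises. The share was 31.2% with a filter on all 4 siRND3 arrays and 32.4% with a filter met at 24 h or at 48 h.

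The single array at 48 h lay outside the range of the 3 arrays at 24 h for 19241 of 28745 probes with all 4 values (66.9%). That share is given as a description, since the 48 h array is not one of the 3. A difference of at least 1 outside that range was found for 966 probes (3.36%), of which 228 were higher and 738 lower. Of the 966, 75.9% also passed in limma, which is 28.0% of the limma calls. The typical probe differed by 0.23 in size between both times, against a median SD of 0.14 among the arrays at 24 h. This spread was largest for dim probes, with a median SD of 0.25 in the dimmest 5749 probes and 0.09 in the brightest 5749.

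Counted once per gene, through the brightest probe of each of 14805 genes, 481 genes were higher at 48 h (3.25%) and 1196 lower (8.08%), with a median difference of 0.03 over all genes. The gene lists below are read against these shares and that median. Genes on a list may share regulation, and no test was made of a list as a whole.

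Several of the deepest falls were in secreted proteins. ANGPTL4, a secreted lipase inhibitor that also acts on blood vessels, read 10.57, 10.55 and 10.49 at 24 h and 7.35 at 48 h. It fell by 3.19 (SE 0.10, adjusted p 0.000327), which is 9.13-fold. PLAU, the urokinase plasminogen activator, read 14.40, 14.54 and 14.45 at 24 h and 12.21 at 48 h, and fell by 2.25 (SE 0.12, adjusted p 0.00169). The other PLAU probe differed by -2.25 as well. CCL3, an inflammatory chemokine, read 10.08, 9.95 and 9.76 at 24 h and 7.73 at 48 h, and fell by 2.20 (SE 0.14, adjusted p 0.00206). For each of these genes the later array lay below all 3 earlier ones.

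Membrane transporters and enzymes of the secretory pathway made up most of the rest of the 10 largest falls. SLC26A2, a sulfate transporter needed for sulfated matrix, read 9.49, 9.33 and 9.41 at 24 h and 7.24 at 48 h, and ANKH, which exports pyrophosphate and citrate, read 6.92, 6.67 and 6.63 and then 4.62. SLC16A6, a monocarboxylate carrier family member, fell by 2.49 and GALNT6, which starts O-glycosylation, by 2.63. These sizes were smaller under normexp, at -0.92 for GALNT6, -0.92 for ANKH and -1.34 for SLC16A6, and the other ANKH probe differed by -0.75. ST8SIA5, a sialyltransferase of gangliosides, fell by 2.24. PMEPA1, an inhibitor of TGF-beta signalling that is itself induced by TGF-beta, read 9.31, 9.04 and 9.08 at 24 h and 7.02 at 48 h. TFPI, the inhibitor of the tissue factor pathway of coagulation, fell by 2.15 on the probe named by the rule, while its other probe differed by -0.34, so the probes of this gene disagree. All 10 genes kept their call when each of the 6 arrays at 24 h was left out in turn, with adjusted p up to 0.0114. That lends no support, since the 10 were chosen on the same arrays and each fit held the single array at 48 h.

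The rises were smaller, and several were in dim probes. LRRN4CL, a membrane protein, read 6.79, 6.56 and 6.60 at 24 h and 8.53 at 48 h, a rise of 1.89 (SE 0.13, adjusted p 0.00234). CCN5, a secreted matricellular protein, rose by 1.57, from 7.66, 7.60 and 7.75 to 9.24. The largest rise by value was ADAMTS16, a matrix metalloprotease, at 2.47 (SE 0.49, adjusted p 0.0292). Its arrays at 24 h spread from 4.38 to 5.29, its difference was 1.07 with normexp, and its call was lost without siControl replicate 3, siRND3 replicate 1 or siRND3 replicate 2 (adjusted p up to 0.0622).

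S1PR1, a receptor for sphingosine 1-phosphate, read 3.15, 3.56 and 4.19 at 24 h and 6.02 at 48 h, and MARCO, a scavenger receptor, read 4.59, 4.99 and 4.55 and then 6.58. Both rose, by 2.38 and 1.87, and both kept their call with each array at 24 h left out, although normexp gave 0.72 for S1PR1 and 1.00 for MARCO. These fits too held the array at 48 h on which both genes were chosen. The orphan receptor GPR157 rose by 1.76 and TEX29 by 1.74, and normexp gave 0.53 and 1.08. C3orf62 rose by 1.57 and FBP2, a fructose bisphosphatase, by 1.53, and normexp gave 0.59 and 0.49. Leaving out 1 array ended these last calls in 4 of 6 fits for C3orf62 (all but those without siRND3 replicate 1 or 2, adjusted p up to 0.0795) and in 2 of 6 for FBP2 (without siControl replicate 2 or siRND3 replicate 2, adjusted p up to 0.0686).

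**Figure D1:**
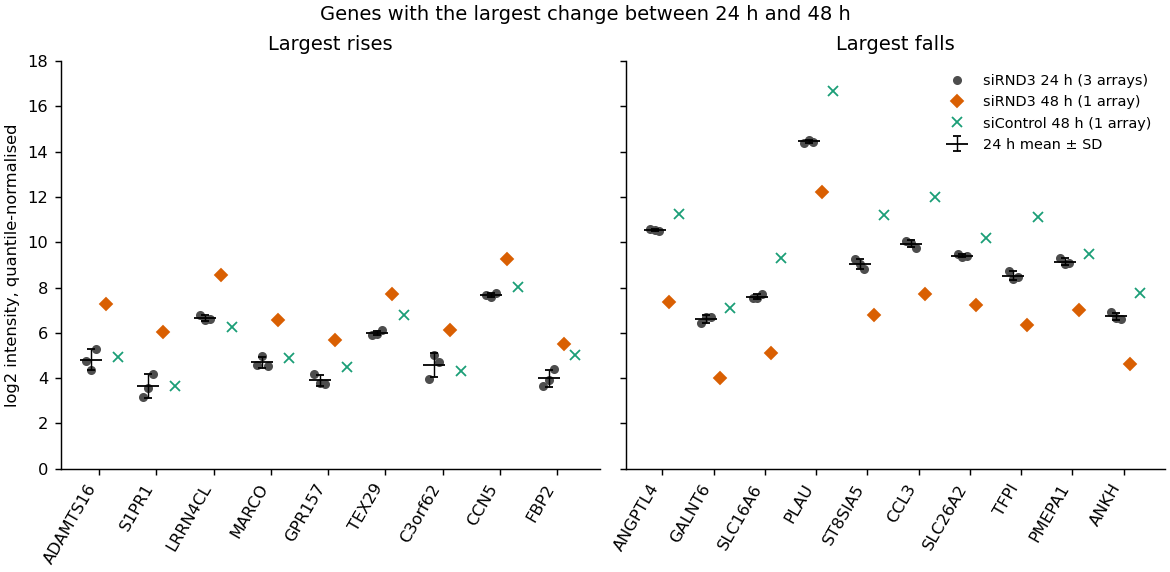
Log2 intensity on each siRND3 array for the largest rises and falls, as named in the text, among called genes above background throughout the siRND3 series. Grey points are the 3 arrays at 24 h with their mean and SD, orange diamonds the 48 h array and green crosses the siControl array at 48 h. In every gene the diamond lies outside the grey points, as the rule for naming them required.

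Some probes went below the background or rose out of it. UBASH3B, a phosphatase that acts on receptor tyrosine kinase signalling, read 5.84, 6.03 and 5.91 at 24 h and was not well above background at 48 h, at least a 10.4-fold fall. SHROOM3, which recruits ROCK to apical actin, read 5.44, 5.05 and 5.43 and then was not well above background, at least 6.81-fold lower. The small heat shock protein HSPB7 was at least 5.55-fold lower, MEI1, a meiotic recombination gene, at least 4.69-fold, and TRIM7, a ubiquitin ligase, at least 4.52-fold. Such a bound is on the main scale of intensities and divides the 24 h mean by the weakest signal that counted as well above background at 48 h, or by the reading of the probe itself where that was higher. With other processing these differences were smaller, and the log2 difference of UBASH3B was -0.88 with normexp and -1.48 with the authors' values. Those of SHROOM3 were -0.59 and -0.95, those of HSPB7 -0.57 and -0.93, and those of TRIM7 -0.62 and -1.01, so that on these scales each fall was smaller than the bound. The other tested TRIM7 probe differed by -0.20, and the MEI1 call was lost in both settings. In siControl cells HSPB7 and TRIM7 were called lower too, with log2 differences of -2.31 and -1.30. UBASH3B, SHROOM3 and MEI1 differed there by -0.38, -0.69 and -0.49, and none of these was called. In all, 219 of the 1869 lower calls were not well above background at 48 h. Over all probes 504 passed the background test on every 24 h array and failed it at 48 h, and 369 only at 48 h, against 410 and 410 in siControl cells. The siRND3 probes that appeared at 48 h with the brightest signal were those of TAGAP, PURG and AQP6, which lay at or under 2.45 on every siRND3 array at 24 h and read 7.76, 7.62 and 6.80 at 48 h. Each of these probes has 1 spot on 1 array, was not tested, and the other tested probes of PURG and AQP6 differed by -0.20 and -0.99.

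Few of the small GTPase and ROCK pathway genes around RND3 were called. Of 26 genes listed, 24 were tested, 2 were called lower (8.33%) and none higher, with a median of 0.01. The median was negative in 4 of the settings tried, the lowest being -0.06. ROCK1, the kinase that RND3 inhibits, differed by 0.03, ARHGAP35, which encodes p190RhoGAP-A, by -0.01 and RHOA by 0.08. The Rnd relatives RND1 and RND2 differed by 0.90 (adjusted p 0.408) and -0.86 (adjusted p 0.0950), neither past the threshold. STMN1, a microtubule destabiliser, read 13.64, 13.53 and 13.61 at 24 h and 12.38 at 48 h, and fell by 1.21 (SE 0.10, adjusted p 0.0033). Its other probe differed by 0.09, so its probes disagree. DIAPH3, a formin that nucleates actin, fell by 0.62 and passed in 1 of the 6 fits that left out an array, the one without siRND3 replicate 2 (adjusted p 0.0472 to 0.0755).

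Genes of the actin cytoskeleton that respond to the factor SRF were lower in 6 of 23 cases, with none higher and a median of -0.19, and in 3 to 5 cases when each array at 24 h was left out. ACTA2, smooth muscle actin, had a level of 9.06 ± 0.05 (SD, n = 3) at 24 h and 8.07 at 48 h, below all 3 earlier arrays, and fell by 0.99. ACTG2, the enteric smooth muscle actin, fell by 1.15, FHL2, a LIM-domain coactivator, by 0.75 and tropomyosin TPM1 by 0.74. The TPM1 call was lost without siControl replicate 3 (adjusted p 0.0524), and normexp gave -0.46 for ACTG2. In siControl cells ACTA2 fell too, by 0.77. Of 16 tested YAP and TAZ targets, 3 were lower and 1 higher, with a median of -0.12, and leaving out 1 array at 24 h gave 1 or 2 in each direction. The higher one was AJUBA, a LIM protein and inhibitor of LATS kinases, at 0.89. F3, tissue factor, fell by 0.70, while CCN1 and CCN2, the classic matricellular targets, fell by 0.51 and 0.67, and both passed in only 1 of the 6 fits that left out an array (adjusted p up to 0.0730 and 0.0921).

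Several inflammatory cytokines of the NF-kB pathway were down-regulated in siRND3 cells, and IL1B and CSF2 among them rose in siControl cells over the same interval. NF-kB is a transcription factor that is held in the cytoplasm by inhibitors and induces cytokines and survival genes once released. Of 29 genes tested, 8 were lower (27.6%, against 8.08% of all genes) and none higher. The median of the list was -0.09, and 0.00 without siRND3 replicate 3. The count of 8 was between 5 and 7 when each array at 24 h was left out. The same 29 genes had a median of 0.44 in siControl cells. IL1B, the interleukin that starts much of this response, read 9.51, 9.39 and 9.38 at 24 h and 8.05 at 48 h, and fell by 1.37 (SE 0.13, adjusted p 0.00428). In siControl cells it read 11.01, 10.87 and 11.15 at 24 h and 12.29 at 48 h, a rise of 1.28 (adjusted p 0.0137).

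BIRC3, an inhibitor of apoptosis, read 3.68, 4.04 and 4.32 at 24 h in siRND3 cells and was not well above background at 48 h. On the main scale it fell at least 2.77-fold (adjusted p 0.0037). In siControl cells the same probe read 6.75, 6.70 and 6.94 at 24 h and 7.92 at 48 h. CSF2, the growth factor GM-CSF, passed the background test on 2 of the 24 h arrays and failed it at 48 h, at least 1.71-fold lower (adjusted p 0.00647), while in siControl cells it rose by 2.15. The calls for both depended on the background correction, since normexp ended them, and that of CSF2 was also lost with the authors' values. The log2 difference of BIRC3 was -0.25 with normexp and -0.51 with the authors' values, and that of CSF2 was -0.14 and -0.38. On these scales each fall was thus smaller than the bound, which holds on the main scale only. CXCL8, interleukin 8, read 6.47, 5.61 and 6.49 at 24 h and 4.13 at 48 h, and fell by 2.07, against -0.81 with normexp and -1.21 with the authors' values. LIF and IL11, cytokines that signal through gp130, fell by 1.19 and 0.85, and PTGS2, the inducible prostaglandin synthase, by 0.78. The IL11 and PTGS2 calls each passed in 2 of the 6 fits that left out an array (adjusted p up to 0.0749 and 0.0579), and PTGS2 was lost with normexp and with the authors' values. TLR4, the receptor for bacterial lipopolysaccharide, fell by 0.43 and passed in none of the 6 fits that left out an array (adjusted p up to 0.0972). Its other probe differed by -0.05, so its probes disagree. The TLR4 call was also lost with normexp (-0.22), the authors' values (-0.35), 75th percentile scaling and a trended prior variance. Of the others IL6 differed by -0.41 (adjusted p 0.0617), CCL2 by 0.38 (adjusted p 0.123) and the inhibitor NFKBIA by 0.15 (adjusted p 0.395).

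Growth factors and vessel-forming signals were lower in 10 of 38 tested genes and higher in 1, with a median of -0.27. VEGFA, the main angiogenic factor, read 12.10, 11.86 and 12.12 at 24 h and 10.59 at 48 h, and fell by 1.44 (SE 0.15, adjusted p 0.00479). Its other probe differed by -1.13. MET, the receptor of hepatocyte growth factor, read 12.40, 12.18 and 12.36 and then 10.67, and fell by 1.65 (SE 0.12, adjusted p 0.00256). IGFBP7, a binding protein of insulin-like growth factors, fell by 1.38 and HBEGF, a ligand of the EGF receptor, by 1.17. BDNF, a neurotrophin, was the 1 that rose, by 0.75, and it differed by 0.83 in siControl cells. Among genes of hypoxia and glycolysis, 4 of 35 were lower and 1 higher, with 2 to 4 lower when each array at 24 h was left out. NDRG1, a stress-responsive gene, fell by 1.11 and PFKP, a phosphofructokinase, by 0.63, while lactate dehydrogenase LDHA differed by -0.05 and PGK1 by -0.05. PFKP was lost without siControl replicate 3 (adjusted p 0.0534), and BNIP3, a mitophagy receptor that fell by 0.60, passed in 1 of the 6 fits that left out an array (adjusted p up to 0.0924).

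The extracellular matrix changed in both directions, with 8 of 44 tested genes lower and 4 higher and a median of -0.10, and with 6 to 9 lower and 2 to 4 higher when each array at 24 h was left out. COL4A2, a chain of the basement membrane collagen, read 10.40, 10.55 and 10.38 at 24 h and 8.50 at 48 h, and fell by 1.94 (SE 0.11, adjusted p 0.00191). MMP2, a gelatinase, read 11.23, 11.08 and 11.05 and then 9.33, and fell by 1.79 (SE 0.13, adjusted p 0.00238). Fibronectin (FN1) and the collagen crosslinker LOX both fell by 0.81. The higher genes included LAMA4, a laminin chain of vessel walls, which rose by 1.04, from 11.43, 11.26 and 11.30 to 12.37, with its 3 other probes between 0.00 and 0.71, and COL5A2, a fibrillar collagen, which rose by 0.80. Of 26 mesenchymal glioblastoma markers 3 were lower and none higher. CD44, the hyaluronan receptor, read 15.26, 15.09 and 15.30 at 24 h and 13.77 at 48 h, and fell by 1.45 (SE 0.11, adjusted p 0.00283). MET and TLR4, described above, were the other 2, and vimentin (VIM) differed by -0.21.

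Immediate early genes, which growth signals induce within minutes, were lower in 9 of 25 cases and higher in 1, with a median of -0.39. KLF2, a zinc finger factor, read 9.63, 9.46 and 9.51 at 24 h and 7.68 at 48 h, and fell by 1.85 (SE 0.13, adjusted p 0.00234). MYC read 11.08, 11.12 and 11.08 and then 9.94, and fell by 1.15 (SE 0.09, adjusted p 0.00285). Subunits of AP-1 fell as well, FOS by 0.90, JUN by 0.82 and FOSL1 by 0.78, whereas JUNB rose by 0.79. Normexp gave -0.45 for FOS, and JUNB was lost without siControl replicate 3 or siRND3 replicate 3 (adjusted p 0.0534 in both). SPRY2, a feedback regulator that dampens MAP kinase signals, and IER3 both fell by 0.91. The count of 9 was between 8 and 9 when each array at 24 h was left out.

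Cell cycle genes were among those called lower at 48 h, and no gene of the cell cycle lists was called higher. G2/M genes encode the machinery that condenses, aligns and separates chromosomes. Of 47 tested, 15 were lower (31.9%, against 8.08% of all genes) and none higher, the median was -0.41, and 43 of the 47 differences lay below 0. The median in siControl cells was 0.08. By limma (adjusted p under 0.05), 3 of the 47 changes were more negative in siRND3 than in siControl cells, against 2.27% of all genes. None was more positive, so for most of the list no difference between both treatments was called. HMMR, a spindle protein that also binds hyaluronan, read 10.97, 10.92 and 11.13 at 24 h and 9.52 at 48 h, and fell by 1.49 (SE 0.11, adjusted p 0.00272). BUB1B, a kinase of the spindle checkpoint, read 10.08, 10.06 and 10.14 and then 9.34, and fell by 0.76 (SE 0.10, adjusted p 0.00868). The kinetochore protein NUF2 fell by 0.85, CENPF by 0.76, the midzone protein PRC1 by 0.75, the kinase AURKB by 0.57 and CDK1, which drives entry into mitosis, by 0.55. AURKB passed in none of the 6 fits that left out an array (adjusted p up to 0.0827), and CDK1 was lost without any of the siControl replicates (adjusted p up to 0.0681). The count of 15 ranged from 7 to 16 when each array at 24 h was left out, and the median from -0.46 to -0.36.

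Many of these genes carry the cell cycle homology region, a promoter element through which mitotic genes are repressed in resting cells. Its core, TTTGAA, was sought on both strands from 250 bases before to 50 after the start of each gene in RefSeq promoters (GRCh38.p14). It was present in 11 of the 15 lower genes and in 27 of the 40 tested G2/M genes with a promoter sequence, against 10.4% of all tested genes and 15.2% of all promoters. The last 60 bases before the start are shown for HMMR and BUB1B, since both were called and carry the element there, in capitals. The HMMR window is chr5:163460572-163460631 on the plus strand and the BUB1B window is chr15:40161009-40161068 on the plus strand.
HMMR: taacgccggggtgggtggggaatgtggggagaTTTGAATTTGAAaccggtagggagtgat
BUB1B: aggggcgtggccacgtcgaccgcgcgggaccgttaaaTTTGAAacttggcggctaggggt
HMMR holds the core in 2 adjacent copies that begin 28 and 22 bases before the start, and BUB1B holds it once, 23 bases before the start. A match of letters is a description and does not show that the element was used.

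Genes of S phase followed the same direction with smaller differences, as 9 of 46 were lower and none higher, with a median of -0.32 and a median of -0.20 in siControl cells. RRM2, which makes deoxynucleotides, fell by 0.93, GINS4 of the replicative helicase by 0.84, and the factor E2F1, which switches S phase genes on by 0.69. MCM3, a subunit of the replication licensing complex, fell by 0.58 and MCM10 by 0.65. The count of 9 ranged from 2 to 10 when each array at 24 h was left out, with MCM3 lost without siControl replicate 3 (adjusted p 0.0526), MCM10 without any of the siControl replicates (adjusted p up to 0.0567) and RRM2 without siControl replicate 3, siRND3 replicate 2 or siRND3 replicate 3 (adjusted p up to 0.0590). Among 16 genes of G1 control 6 were lower and none higher. These included the repressors E2F8 and E2F7, which fell by 1.20 and 0.87, CDK2, which fell by 0.71, the CDK4 inhibitor CDKN2D, which fell by 0.72, and cyclin D1 (CCND1), which fell by 0.70 and was lost without siControl replicate 1 or 3 (adjusted p up to 0.0526). Normexp gave -0.29 for CDK2. The lower genes thus held both activators and inhibitors of the cycle. The replication-dependent histone genes had a median of -0.40, and 59 of 62 differences lay below 0, but only H1-3 was called, at -0.76, and it was lost in 3 of the 6 fits that left out an array (without siControl replicate 1, siControl replicate 3 or siRND3 replicate 2, adjusted p up to 0.0555). Histone genes are near-identical copies, so their probes may not tell them apart.

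Stress and amino acid genes under the factor ATF4 were lower in 8 of 28 cases and higher in 1, with a median of -0.28. SLC7A5 and SLC7A11, amino acid transporters, fell by 1.48 and 1.43, the former from 8.03, 8.26 and 8.26 to 6.71. MTHFD2, a mitochondrial folate enzyme, fell by 0.90 and STC2, a secreted glycoprotein, by 0.85, whereas the transporter SLC38A2 rose by 0.79. ATF4 itself differed by -0.07 (adjusted p 0.703). In siControl cells the median of these genes was -0.22, and the count of 8 was between 5 and 7 when each array at 24 h was left out. The endoplasmic reticulum chaperone HSPA5 read 11.69, 11.64 and 11.67 at 24 h and 10.94 at 48 h, and fell by 0.73. It was the 1 lower gene of 22 on the list of chaperones and the unfolded protein response, where SYVN1, a ubiquitin ligase, was higher by 0.41 and passed in none of the 6 fits that left out an array (adjusted p up to 0.103).

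A group of interferon-stimulated genes rose. Interferons act through STAT proteins and IRF9, which bind the interferon-stimulated response element and induce antiviral proteins. Of 32 genes tested, 9 were higher (28.1%, against 3.25% of all genes) and none lower, the median was 0.31, and 28 of the 32 differences lay above 0. The median in siControl cells was 0.24, and there the 9 genes differed by 0.17 to 0.53, with none called. By limma (adjusted p under 0.05), 1 of the 32 changes was more positive in siRND3 than in siControl cells, against 1.45% of all genes. None was more negative, so for most of the list no difference between both treatments was called. IFIT2, an antiviral RNA-binding protein, read 8.30, 8.33 and 8.54 at 24 h and 9.58 at 48 h, and rose by 1.20 (SE 0.13, adjusted p 0.00526). IFIT1, of the same family, read 8.35, 8.48 and 8.56 and then 9.61, and rose by 1.15 (SE 0.12, adjusted p 0.00476). IRF9 itself rose by 1.07, from 8.25, 8.31 and 8.33 to 9.37. The antigen-processing genes TAP1 and PSMB9 rose by 0.67 and 0.51, and GBP2, IFITM1 and IFI6 by 0.74, 0.64 and 0.57. Normexp gave 0.36 for IFITM1, and of the 6 fits that left out an array GBP2 passed in 2 and PSMB9 and IFI6 in 1 each (adjusted p up to 0.0771). The count of 9 was between 6 and 8 when each array at 24 h was left out.

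The response element was sought on both strands as TTTC, then 2 bases of any kind, then TTTC, letters that were chosen after these values were seen. It was present in 4 of the 6 higher genes with a promoter sequence and in 16 of the 24 tested interferon genes with one, against 2.89% of all tested genes and 3.57% of all promoters. The IFIT1 promoter is shown as the example, from 130 to 71 bases before the start, at chr10:89392493-89392552 on the plus strand (GRCh38.p14), with the matches in capitals.
IFIT1: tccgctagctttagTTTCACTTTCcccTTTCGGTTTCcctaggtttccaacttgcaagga
The matches begin 116 and 103 bases before the start. For contrast, the NF-kB motif was found in 10 of the 26 tested genes of the inflammatory list with a promoter sequence and in 1 of its 7 lower genes with one, against 12.9% of all tested genes. That 1 gene was BIRC3, shown from 210 to 151 bases before its start, at chr11:102317274-102317333 on the plus strand, with the match in capitals.
BIRC3: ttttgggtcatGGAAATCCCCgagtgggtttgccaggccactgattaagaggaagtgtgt

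Part of the cholesterol and fatty acid genes also rose. Their master factors are SREBP1 and SREBP2, which are cleaved and enter the nucleus when membrane sterols run low. Of 32 genes tested, 9 were higher (28.1%) and 1 lower, with a median of 0.26 and a median of 0.20 in siControl cells. SREBF1, which encodes SREBP1, read 13.37, 13.22 and 13.17 at 24 h and 14.52 at 48 h, and rose by 1.27 (SE 0.12, adjusted p 0.00401), although its other probe differed by 0.24. STARD4, a sterol carrier, read 8.24, 8.05 and 8.24 and then 9.31, and rose by 1.13 (SE 0.12, adjusted p 0.00485). HMGCS1, an early enzyme of the mevalonate pathway, rose by 0.79, the desaturase SCD by 0.64 and fatty acid synthase (FASN) by 0.65. The sterol isomerase EBP was the 1 that fell, by 0.58, and it was lost without siControl replicate 3 (adjusted p 0.0507). The count of 9 was between 5 and 9 when each array at 24 h was left out.

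Metallothioneins, small proteins that bind zinc and copper, were mostly lower by small amounts, with 6 of 11 called lower, none higher and a median of -0.48. MT1L read 17.60, 17.63 and 17.62 at 24 h and 17.04 at 48 h, and fell by 0.58, while MT1X and MT1E fell by 0.54 and 0.51 and MT1G by 0.65. The siControl median was -0.26. These genes are near-identical copies whose probes may not tell them apart. The count of 6 ranged from 1 to 5 when each array at 24 h was left out, with MT1G passing in 2 of those 6 fits, MT1E in 2 and MT1X in 4 (adjusted p up to 0.0907).

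The 395 tested genes with ZNF symbols, most of them zinc finger proteins of the nucleus, had few calls. In siRND3 cells 14 were higher (3.54%) and 6 lower (1.52%), with a median of 0.11, while their median in siControl cells was -0.23. Leaving out 1 array at 24 h gave 4 to 10 higher and 3 to 7 lower. Among them ZNF669 rose by 0.88, from 5.18, 5.01 and 5.24 to 6.02, and ZNF608 by 1.42, the latter with 4.47, 4.77 and 5.10 at 24 h and 6.20 at 48 h. The ZNF608 call was lost without siControl replicate 2 or siRND3 replicate 2 (adjusted p up to 0.0670), and its other probe differed by 0.50. ZNF507 and ZNF528 were not well above background at 48 h and fell at least 2.97-fold and 2.58-fold on the main scale, while normexp gave log2 differences of -0.41 and -0.39. For ZNF669 and ZNF608 normexp gave 0.37 and 0.52. Zinc finger genes resemble each other in sequence, and some probes may read more than 1 of them.

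The remaining lists are given by their counts. Of 26 p53 targets 2 were higher and 3 lower, with BTG2, an antiproliferative gene, higher by 0.81, the cytokine GDF15 lower by 0.73, and CDKN1A at 0.31 (adjusted p 0.395). Of 39 apoptosis genes 3 were higher and 6 lower, among them BMF, a BH3-only killer that rose by 1.01 (by 1.01 in siControl cells, and by 0.67 with normexp), and XIAP and cytochrome c (CYCS), which fell by 0.80 and 0.67. Leaving out 1 array at 24 h gave 1 to 3 higher and 5 lower. Lysosome and autophagy genes had 4 of 31 lower, with the arrestin TXNIP at -1.01 and MAP1LC3B at -0.81, and CTSB at -0.64, the last passing in 1 of the 6 fits that left out an array (adjusted p up to 0.0903). On the list of NRF2 genes SLC7A11 was the 1 called gene of 23, and PGD differed by 0.60 (adjusted p 0.0645). Genes with ribosomal protein symbols (2 of 84 lower), respiratory chain subunits (1 of 82 lower, NDUFV2 by 0.49) and SR proteins and hnRNPs (1 higher and 2 lower of 33) had medians of 0.05, 0.12 and 0.01. RPL27A and RPL7L1 were the entries lower on the first of these lists, which was drawn by symbol alone, at -0.59 and -0.51. They passed in 1 and 0 of the 6 fits that left out an array (adjusted p up to 0.0855 and 0.0831), while NDUFV2 passed in 2 (adjusted p up to 0.0726). Normexp gave -0.33 for RPL27A, and its call was lost with the authors' values. The splicing factor SRSF1 fell by 1.31 and HNRNPA0 by 0.89, and normexp gave -0.57 for SRSF1. Of 65 heat shock and DNAJ genes 2 were higher and 5 lower. DNAJC28 rose by 1.08 and was lost without siRND3 replicate 2 (adjusted p 0.0530), with 0.52 under normexp, and HSPA13 fell by 0.82. Common control genes had a median of -0.05, with GAPDH at 0.04 and ACTB at -0.07, and 2 of 19 called lower, among them TFRC (-0.63). TFRC passed in 1 of the 6 fits that left out an array (adjusted p up to 0.0732).

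**Figure D2:**
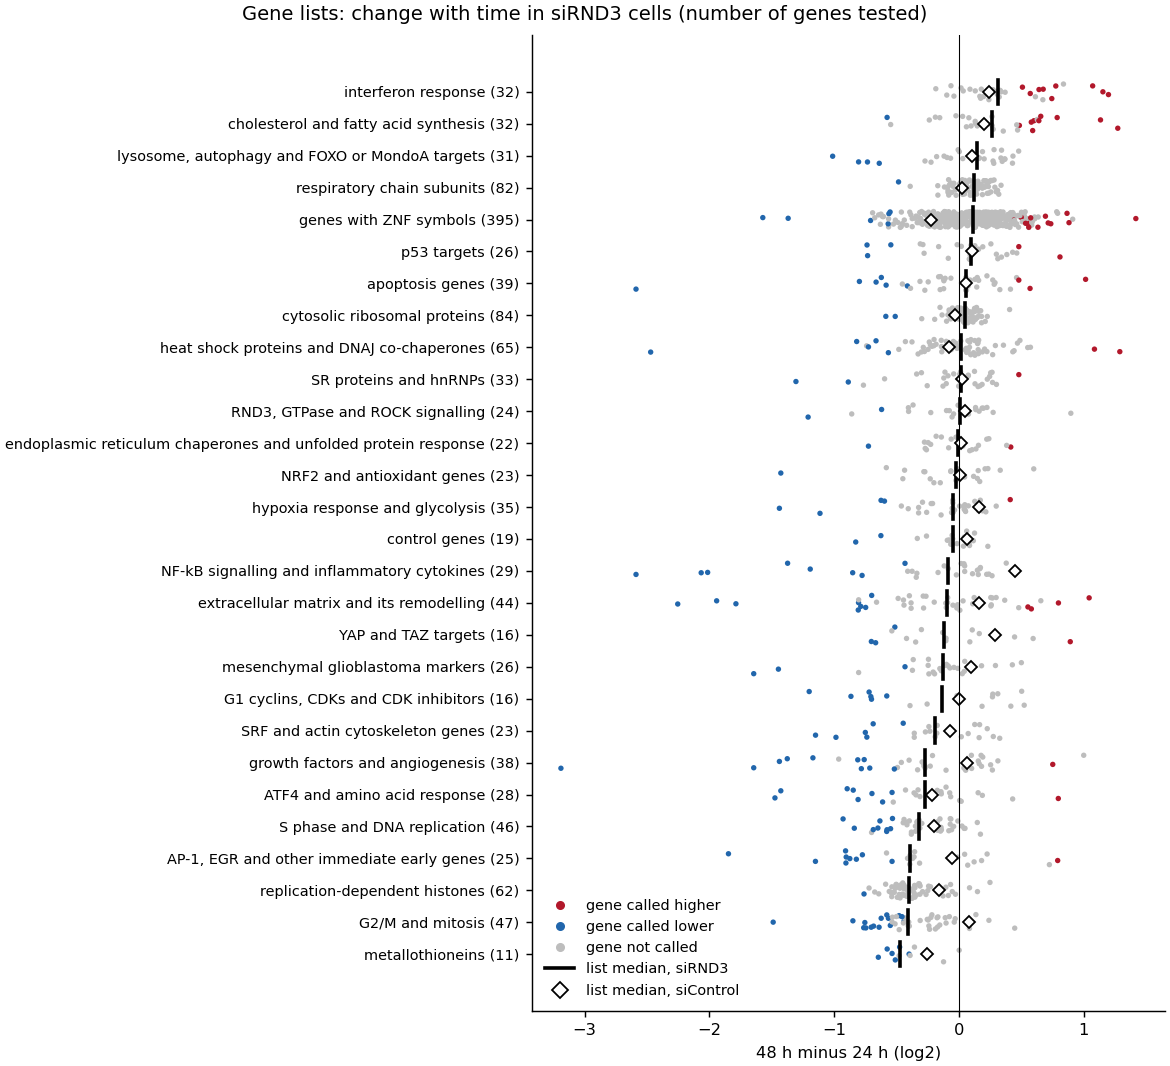
Difference between 48 h and 24 h (log2, horizontal axis) for each tested gene of 28 lists, with genes called higher in red, called lower in blue and not called in grey. Black bars are list medians in siRND3 cells and open diamonds list medians in siControl cells. The siRND3 medians run from -0.48 for metallothioneins to 0.31 for interferon genes, and the siControl median of NF-kB genes, 0.44, lies to the right of their siRND3 median of -0.09.

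To ask which of these changes differed from those of control cells, the change with time in siRND3 cells was compared with that in siControl cells. Both contrasts come from different arrays. Across the 28762 probes they correlated at r = 0.27 (Spearman 0.29), given as a description of probes measured on the same slide. Of the probes called lower in siRND3 cells, 71.2% differed in the same direction in siControl cells, where 210 were called lower too and 27 were called higher. Of the probes called higher, 67.5% shared the direction, with 61 called higher in siControl cells and 13 called lower. Over all 28762 probes, 796 were called lower and 242 higher in siControl cells. The share of all probes with the same direction in both treatments was not counted, so 71.2% and 67.5% are a description. The difference between both changes passed an adjusted p of 0.05 for 799 probes (2.78%), with siRND3 more positive in 322 and more negative in 477, and for 5313 at an unadjusted p under 0.05. It passed in 22.7% of the probes called lower in siRND3 cells and in 15.5% of those called higher. The siRND3 change is itself part of that difference, so choosing probes by it favours a pass, and both shares are a description. By gene, 215 were more positive (1.45%) and 336 more negative (2.27%). The count of 799 rested on the siControl arrays, as leaving out siControl replicate 1, 2 or 3 left 8, 24 or 23 probes, against 229, 282 or 278 for siRND3 replicate 1, 2 or 3. All 799 kept their sign in each of these 6 fits. That lends no support, since the 799 were chosen on the same arrays and each fit held both arrays at 48 h.

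Of the inflammatory genes 8 of 29 were more negative in siRND3 cells and none more positive, against 2.27% of all genes. That count rested on the siControl arrays as well, being 0, 2 and 2 without siControl replicate 1, 2 and 3 and 5 to 6 without each siRND3 replicate. They were BIRC3, CSF2, IL1B, LIF, IL11, TLR4, IL6 and CCL2. CSF3, the growth factor G-CSF and not on the list, read 10.11, 10.16 and 9.99 at 24 h and 8.60 at 48 h in siRND3 cells, while in siControl cells it read 10.47, 10.65 and 10.58 and then 11.84. Its time course thus differed by -2.76 (SE 0.17, adjusted p 0.00752). ANGPTL4 differed by -2.87 (SE 0.14, adjusted p 0.00417) and CCL3 by -2.81 (SE 0.19, adjusted p 0.00952). ST8SIA5 and SLC16A6 differed by -2.74 each. In these 5 genes siRND3 cells fell, and siControl cells ranged from -0.32 for ANGPTL4 to 1.28 for CSF3.

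On the positive side, LRRN4CL differed by 2.34 (SE 0.19, adjusted p 0.0125), since it rose in siRND3 cells and differed by -0.46 in siControl cells. NEFM, a neurofilament, read 5.60, 5.29 and 5.80 at 24 h and 6.77 at 48 h in siRND3 cells and differed by 2.08 from its change in siControl cells. Its rise of 1.20 was lost without siControl replicate 1, siControl replicate 3 or siRND3 replicate 1 (adjusted p up to 0.0558). CPA5, a carboxypeptidase, differed by 1.82. Their changes in siRND3 cells were 0.68 and 0.38 with normexp. ID3, an inhibitor of differentiation factors that BMP signals induce, read 11.74, 11.99 and 11.80 and then 12.95 in siRND3 cells, against 11.06, 11.04 and 11.13 and then 10.47 in siControl cells, a difference of 1.71 (SE 0.18, adjusted p 0.0184). ZNF664 fell in both treatments, by 0.57 in siRND3 and by 2.22 in siControl cells, and so differed by 1.65, although its fall in siRND3 cells was lost without siControl replicate 3 (adjusted p 0.0524). Of the ZNF genes 30 of 395 were more positive in siRND3 cells (7.59%, against 1.45% of all genes) and 1 was more negative, but the 30 became 0 without any 1 siControl replicate and 7 to 13 without each siRND3 replicate.

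A smaller set changed alike in both treatments. ATP8A1, a phospholipid flippase, read 6.74, 6.62 and 7.14 at 24 h and 8.12 at 48 h in siRND3 cells, a rise of 1.29, and rose by 1.61 in siControl cells. TEX29 rose by 1.74 and 1.18, and NFE2, an erythroid transcription factor, by 1.15 and 1.38. NFE2 passed in 3 of the 6 fits that left out an array (not without siControl replicate 3, siRND3 replicate 1 or siRND3 replicate 3, adjusted p up to 0.0612). GPR19, an orphan receptor, fell by 1.51 in both, LEPR, the leptin receptor, by 1.37 and 1.53, and INSYN2A, an inhibitory synapse factor, by 1.38 and 1.28. LEPR had 2 other probes, which differed by -1.09 and 0.02. Normexp gave smaller changes in siRND3 cells, -0.74 for GPR19, -0.50 for LEPR, -0.75 for INSYN2A, 0.84 for ATP8A1 and 0.44 for NFE2. For these genes the difference between both changes lay between -0.32 (ATP8A1) and 0.55 (TEX29), with adjusted p from 0.195.

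**Figure D3:**
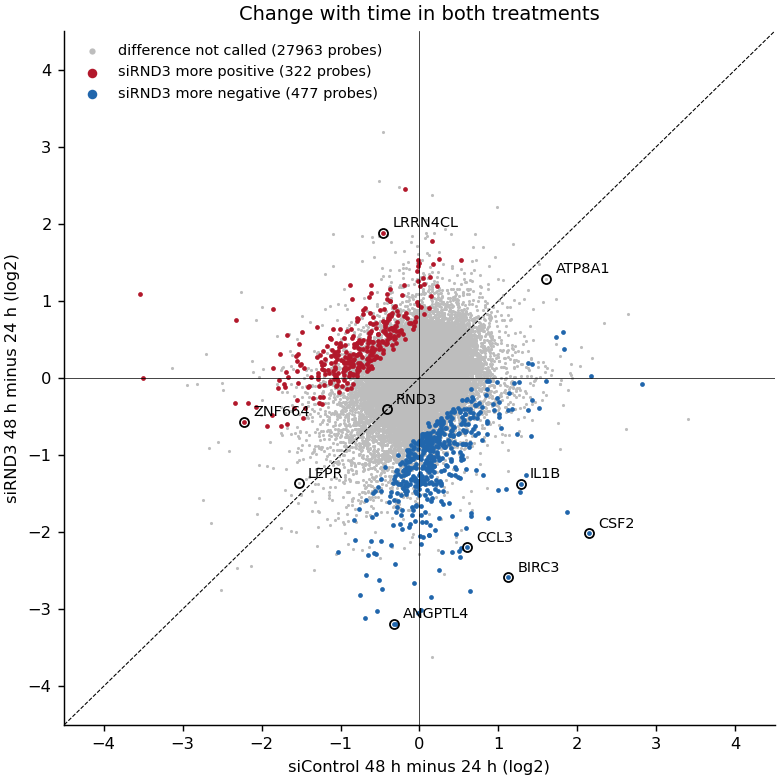
Change with time in siRND3 cells (log2, vertical axis) against that in siControl cells (log2, horizontal axis), 1 point per tested probe, with the 322 probes more positive in siRND3 cells in red and the 477 more negative in blue. The dashed line marks equal change, near which RND3, ATP8A1 and LEPR lie, while CSF2, IL1B and BIRC3 lie at the lower right, higher with time in siControl and lower in siRND3 cells.

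Calls were also counted by the kind of transcript, without a test between kinds. Of 18582 tested probes for coding RefSeq transcripts, 3.17% were higher and 8.02% lower. Of 5150 tested lincRNA probes 1.59% were higher and 3.22% lower, and of 1050 probes for non-coding RefSeq transcripts 1.33% and 5.52%. The classes differ in level, with median log2 intensities at 24 h of 8.49, 6.30 and 6.92 in turn, and the part of this in the shares was not tested. By level, the share called lower was 5.08% in the dimmest 5749 probes and 6.07% in the brightest 5749, with the highest share, 7.83%, in the next brightest 5749. Promoter motifs were counted in the called genes as a description. The cell cycle core was in 14.0% of the promoters of lower genes, 10.6% of those of higher genes and 10.4% of all tested, and the interferon element in 1.88%, 5.67% and 2.89%. The AP-1 motif TGANTCA was in 6.15% of the promoters of lower genes, 4.9% of those of higher genes and 5.16% of all tested, and the NF-kB motif in 12.9%, 16.0% and 12.9%.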

How the data were processed

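U87 RNA was labelled with Cy3 and hybridised to 8 one-colour Agilent arrays on 1 slide. Per the file headers, the spot intensities deposited by the authors had been background-corrected and detrended within each array by the scanner software and were not scaled between arrays. A matrix of log2 values that the authors quantile-normalised was deposited as well and served here only as an alternative. From the processed signal, control spots and outlier spots were left out, log2 values were quantile-normalised over all 8 arrays and spots of a probe were averaged. Of 42405 probes, 25422 (60.0%) were matched to a gene through RefSeq accessions (GRCh38.p14). Probes were tested where all 3 arrays of at least 1 treatment at 24 h were well above background.

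Means of 4 groups were fitted with limma 3.58.1 in R 4.3.3, with 4 residual degrees of freedom, all from the arrays at 24 h, and Benjamini-Hochberg adjustment over 28762 probes. The fit was tested on simulated data. A difference of at least 1 outside the 24 h range was counted without a test. Named genes were RND3, the largest rises and falls, the largest bounds at background, the largest differences between treatments, shared changes, and the leading genes of each of 28 lists, each by size among called probes. A few genes that these rules would name are not reported here. The remaining genes were named from these lists after their values were seen, and list counts use the brightest probe of each gene. Arrays, lists and rules were chosen with earlier results of these data known. Alternatives changed the scaling, background correction, filter, arrays fitted, prior variance and replicates. The number of arrays limits the precision.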

Additional observations from a re-analysis of the deposited data

Results flagged for a closer look

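The change with time differed between siRND3 and siControl cells, by limma's test of the difference itself, for 799 probes. The values below are the siRND3 change minus the siControl change on the log2 scale, and each passed an adjusted p of 0.05. Of the 52 genes named by rule that passed, 5 to 11 still did without 1 of the siControl arrays and 28 to 34 without 1 of the siRND3 arrays.

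Among genes named above, the difference was positive for LRRN4CL (2.34), NEFM (2.08), CPA5 (1.82), ID3 (1.71), ZNF664 (1.65), DNAJC28 (1.5), ZNF669 (1.38) and IFIT2 (0.98).

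It was negative for inflammatory genes, with CSF2 at -4.17, BIRC3 at -3.71, CCL3 at -2.81, CSF3 at -2.76, IL1B at -2.66 and TLR4 at -0.88. CSF2 and BIRC3 were at background at 48 h in siRND3 cells, as were UBASH3B (-4.22) and SHROOM3 (-2.43), so these 4 values are not exact sizes.

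Secreted, matrix and surface genes followed, with ANGPTL4 at -2.87, PLAU at -2.54, COL4A2 at -2.53, MMP2 at -2.20, TFPI at -2.16, VEGFA at -1.64, MET at -1.60, CD44 at -1.55, IGFBP7 at -1.45, F3 at -1.36 and GDF15 at -0.98. Transporters and enzymes of the secretory route differed too, with SLC16A6 at -2.74, ST8SIA5 at -2.74, GALNT6 at -2.12, SLC26A2 at -1.81, ANKH at -1.63 and PMEPA1, an inhibitor of TGF-beta signalling, at -1.51.

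Of regulatory and cell cycle genes, IER3 differed by -1.31, KLF2 by -1.01, MYC by -0.71, STMN1 by -1.48, HMMR by -1.21 and BUB1B by -0.78. Among stress and metabolic genes the values were -1.28 for STC2, -1.23 for NDRG1, -1.18 for BNIP3, -1.13 for TIGAR, -1.12 for SLC7A5, -0.91 for HSPA13, -0.87 for TXNIP, -0.83 for HSPA5 and -0.82 for RRM2B. RPL27A differed by -1.45 and HNRNPA0 by -1.21.

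A signal at 48 h in siRND3 cells appeared in probes that were at background on every siRND3 array at 24 h and were not tested. Each 24 h array was set at its weakest signal counted as well above background, or at the probe's own reading where higher. The signal was then 51.0-fold for TAGAP, 46.4-fold for PURG, 21.1-fold for AQP6, 14.0-fold for CALHM4 and 12.5-fold for TRIM72. Each was 1 spot on a single array. That weakest signal was 1.15 on siRND3 replicate 1, against 2.38 and 2.42 on the others, so these folds are not lower bounds. The other tested probes of PURG and AQP6 differed by -0.20 and -0.99.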

How the results depend on the processing

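None of the genes named by rule changed sign under the alternatives run. That lends no support, since most were chosen for a large difference and each alternative used the same array at 48 h. The 2622 calls fell to 443 when the siRND3 arrays were normalised and fitted alone (51 higher, 392 lower) and to 416 when they were fitted alone after joint normalisation (46 higher, 370 lower), fits with fewer arrays behind the spread. The rule of a 2-fold difference outside the 24 h range gave 966. Rises numbered 1351 with normexp and 1304 with a trended prior variance, against 753, and the cause was not tested. The 966 became 154 with normexp, 245 with the authors' log2 values, 2488 without a filter and 633 with a filter on all 4 siRND3 arrays. The 799 differences between treatments became 1295 with normexp and 1520 with a trended prior variance. Leaving out 1 array at 24 h gave 1456 to 2400 calls (334 to 725 higher, 1122 to 1690 lower) and 8 to 282 differences between treatments. The median turned sign under at least 1 alternative for the lists of GTPase and ROCK, NF-kB, G1, apoptosis, SR and hnRNP, and heat shock genes.

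Same-numbered siRND3 and siControl arrays at 24 h deviated together at r = 0.002, -0.012 and 0.128, and differently numbered ones at r between -0.134 and 0.112. These values do not decide whether the numbers pair the arrays. A block for the replicate number uses up part of the 4 residual degrees of freedom. With the replicate block limma called 1 probe, 0 higher and 1 lower (5860 at an unadjusted p under 0.05), and 0 differences between treatments (4806 unadjusted).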
